A study of Rattus norvegicus with 102 samples.

Results

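The GABA-A receptor genes Gabrb1, Gabrb2, Gabrg1, Gabrg3 and Gabrd were followed through the subfields of the rat hippocampus and through 3 classes of rats. Members were the rows whose gene symbol equalled one of these names, which gave 5 genes of 26284 listed in the Illumina table, of 26341 in the Ion Proton table and of 26284 in a further table named WT by the submitters. Each symbol stood once in every table, and 5 of 5 members had the mean of at least 10 that was needed for a test. The study asked which genes mark a subfield and which change with age or with memory in old age. CA1, CA3 and dentate gyrus (DG) pieces had been dissected from the hippocampus of 34 male Fisher 344 rats (spelled Fischer 344 in the methods). By the design text the pieces came from a dorsal slice, by the methods from along the length of the hippocampus. According to the labels none of the rats carried a transgene or was given a drug. The classes were 10 young rats aged 5 to 6 months (Y), 12 aged rats without impairment (OG) and 12 aged rats with impairment (OB), and the 24 aged rats were 17 to 22 months old. Performance in a water maze, run before the tissue was taken, set the class of an aged rat. A table held 1 library for each of the 34 rats in each of the 3 subfields. The Illumina and Ion Proton libraries were made from poly-A RNA of the same pieces, so the second set repeats the measurement and not the animals.

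GABA-A receptors are chloride channels built from several subunits around a pore, and they carry most of the fast inhibition in the hippocampus. Alpha and beta subunits form the pocket that binds GABA, and a gamma or a delta subunit usually completes the channel. Gamma subunits hold receptors at synapses and form, with an alpha subunit, the site for benzodiazepines. Delta subunits take the gamma position in receptors outside the synapse, which respond to low ambient GABA, carry a steady (tonic) inhibition and are sensitive to neurosteroids. Granule cells of the dentate gyrus are a well-known place of receptors that pair delta with alpha4, encoded by Gabra4.

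In the submitters' rn5 tables Gabrb1 (ENSRNOG00000002327) and Gabrg1 (ENSRNOG00000002360) lay on chromosome 14, Gabrb2 (ENSRNOG00000003680) on chromosome 10, Gabrg3 (ENSRNOG00000014862) on chromosome 1 and Gabrd (ENSRNOG00000016385) on chromosome 5. The tables gave the chromosome only. In the gene order of RefSeq (assembly GRCr8), Gabrb1, Gabra4, Gabra2 and Gabrg1 followed each other with Cox7b2 between the alpha genes, Gabrb2 lay beside Gabra6, and Gabrg3 lay beside Gabra5. Gabrd had no receptor gene beside it, and its neighbours were Prkcz and Cfap74. It was also the shortest gene, spanning 11.9 kb against 71.4 kb for Gabrg1 and 219.6 to 623.4 kb for the other 3.

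The 250 bases before the start of transcription are shown for Gabrd, Gabrg3 and Gabrb2, because these are the members whose level differed between subfields in both poly-A tables. Capitals mark the GC box GGGCGG on either strand, and matches may overlap. The sequences are those of RefSeq (GRCr8), written in the direction of transcription, and lie at chr5:171252710-171252959 (minus strand, Gabrd), chr1:117382458-117382707 (minus strand, Gabrg3) and chr10:27439543-27439792 (plus strand, Gabrb2).
Gabrd: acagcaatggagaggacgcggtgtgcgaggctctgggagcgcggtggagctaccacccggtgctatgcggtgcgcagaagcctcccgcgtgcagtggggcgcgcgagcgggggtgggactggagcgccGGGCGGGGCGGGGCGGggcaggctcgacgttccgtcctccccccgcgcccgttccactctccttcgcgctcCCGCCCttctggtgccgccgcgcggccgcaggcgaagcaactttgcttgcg
Gabrg3: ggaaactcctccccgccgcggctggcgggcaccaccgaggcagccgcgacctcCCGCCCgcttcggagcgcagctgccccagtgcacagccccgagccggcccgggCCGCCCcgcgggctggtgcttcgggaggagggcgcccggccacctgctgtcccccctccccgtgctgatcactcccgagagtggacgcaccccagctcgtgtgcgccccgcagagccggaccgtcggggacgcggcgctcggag
Gabrb2: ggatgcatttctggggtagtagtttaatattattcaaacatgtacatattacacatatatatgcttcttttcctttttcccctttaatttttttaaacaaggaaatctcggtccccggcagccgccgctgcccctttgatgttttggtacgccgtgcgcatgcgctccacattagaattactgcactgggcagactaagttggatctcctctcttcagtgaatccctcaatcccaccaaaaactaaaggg

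The promoters of the members fell into 2 kinds of base composition. That of Gabrd held 4 GC boxes, 74.0% G and C and 35 CG pairs, and 95.8% of all 33469 promoters of this length had a lower share of G and C. The promoter of Gabrg3 held 2 GC boxes, 78.0% G and C and 33 CG pairs. Gabrb2 had 0 GC boxes, 43.2% G and C and 8 CG pairs, and the windows of Gabrb1 (49.2% G and C, 8 CG pairs) and Gabrg1 (48.4% G and C, 6 CG pairs) also had 0 GC boxes. Over all promoters, 30.5% held a GC box, and the medians were 51.2% G and C and 5 CG pairs. The letters TATAAA occurred in 0 of the 5 windows and in 12.9% of all promoters. The letters CCAAT occurred 1 time in the window of Gabrb1 and 2 times in that of Gabrg1, with 34% of all promoters holding them. These matches describe the sequence and do not show that a factor binds there.

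Depth and library identity bear on all that follows. Totals were 3.25 to 42.8 M reads per Illumina library (median 10.8), 4.47 to 21.4 M reads per Ion Proton library (median 9.74) and 3.54 to 20.6 M reads per WT library (median 8.07). The rats carried numbers of 2 series, 18 rats below 9000 (5 Y, 6 OG, 7 OB) and 16 rats from 9000 up (5 Y, 6 OG, 5 OB). The 2 series hold the same numbers of young and of aged rats as the 2 sites of the design text. No label ties a rat to a site, however. By marker genes of the subfields, 14 libraries stood nearer to another subfield than to their own in both poly-A tables, and these are called libraries that stand apart. They were 1 CA1, 8 CA3 and 5 DG libraries, and 12 of 48 libraries of rats from 9000 up were among them against 2 of 54 of rats below 9000. The CA3 library of rat R9781 lay nearest DG and its DG library nearest CA3, and the CA1 library of rat R9869 lay nearest DG and its DG library nearest CA1. The other libraries lay nearest the subfield they are labelled with in at least 1 of the 2 tables. There were 8 Ion Proton libraries unlike the Illumina library of the same RNA, the CA3 library of rat R9875 that also stood apart among them, with 68 to 623 of 11394 genes far above their Illumina value against at most 31 genes in the other 94 pairs.

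Between subfields a member was called when its difference passed an adjusted p of 0.05 over all genes (limma) in the Illumina and in the Ion Proton table with 1 direction. Gabrd, the delta subunit, was higher in DG and in CA1 than in CA3, and its difference between CA1 and DG was not called. Gabrg3, a gamma subunit, was lower in DG than in CA1 or CA3. Gabrb2, a beta subunit that is common at inhibitory synapses, was higher in CA1 and in DG than in CA3. Gabrb1 and Gabrg1 were called in 0 of the 3 comparisons. The members called were 2 of 5 between CA1 and CA3 (14.1% of 14179 genes), 1 of 5 between CA1 and DG (26.4%) and 3 of 5 between CA3 and DG (27.9%). In the Illumina table the libraries of 2 subfields lay fully apart for 0 of 5 members in each comparison, as they did for 0% of the 14179 genes. Tissue pieces were sequenced, so fewer cells of a type and less RNA per cell cannot be told apart here.

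**Figure D1:**
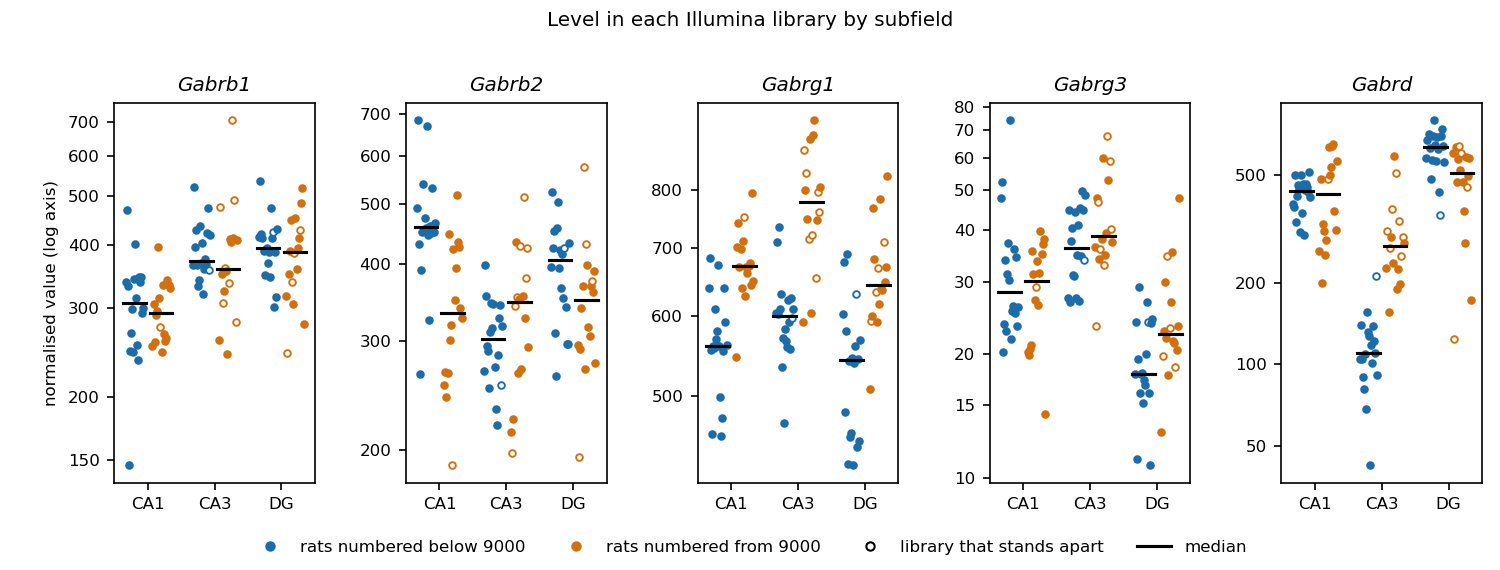
Normalised value (reads divided by the size factor of the library, log axis) of each member in each Illumina library, by subfield. Blue points are the 18 rats numbered below 9000, orange points the 16 rats from 9000 up, open points libraries that stand apart, and bars the median of a series; Gabrd in CA3 lies between 42.3 and 211 in the first series and between 156.5 and 587 in the second.

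Of the beta subunits, Gabrb2 ranged in CA1 from 189 to 684 normalised reads with a median of 433 (411 ± 113, SD, n = 34 Illumina libraries). In CA3 the Gabrb2 values ran from 198 to 514 with a median of 317 (318 ± 70.9), and in DG from 195 to 574 with a median of 369 (372 ± 80.6). The ranges overlapped over most of their width, and the medians stood in the order CA1, DG, CA3 in all 3 tables. The Gabrb2 level in CA1 was 1.27-fold that in CA3 (95% interval 1.13 to 1.43), a log2 difference of 0.35 (SE 0.085, limma adjusted p = 0.000641), and it was 0.42 in the Ion Proton table (adjusted p = 0.00018). Gabrb2 was also lower in CA3 than in DG, by -0.22 as CA3 minus DG (limma adjusted p = 0.0198, Ion Proton -0.23, adjusted p = 0.0354). That Gabrb2 call was lost under DESeq2 (Ion Proton adjusted p = 0.0598), without the filter on low values (0.0504) and in rats numbered from 9000 up (-0.06, adjusted p = 0.752). Between CA1 and DG the difference of 0.12 did not pass (adjusted p = 0.223), while the WT table gave 0.29 (adjusted p = 0.000139). Within single rats Gabrb2 was higher in CA1 than in CA3 in 28 of 34 rats by Illumina, 27 by Ion Proton and 30 by WT, and in 22, 20 and 23 of the 23 rats without a library that stands apart.

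Gabrb1, the other beta subunit, was lower in CA1 in the Illumina table and could not be called, because the Ion Proton table gave no such difference. Its Illumina values ran from 146 to 468 in CA1 (median 299, mean 301.5 ± 58.1, SD, n = 34), from 243 to 705 in CA3 (median 367, mean 387 ± 83.6) and from 244 to 534 in DG (median 391, mean 389 ± 64.4). CA3 and DG were neighbours in this order that did not differ beyond their spread, with a log2 difference of -0.02 (adjusted p = 0.83). The Gabrb1 difference was -0.36 for CA1 minus CA3 (SE 0.0662, interval -0.49 to -0.23, limma adjusted p = 6.35e-06) and -0.38 for CA1 minus DG (adjusted p = 1.11e-06). In the Ion Proton table the same differences were -0.05 (adjusted p = 0.838) and 0.04 (adjusted p = 0.861). The WT table gave -0.18 (adjusted p = 0.00482) and -0.16 (adjusted p = 0.00726). Gabrb1 was lower in CA1 than in CA3 in 31 of 34 rats by Illumina, in 27 of 34 by WT and in 21 of 34 by Ion Proton.

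The 8 Ion Proton libraries unlike their Illumina library moved Gabrb1 more than any other member. Across all pairs the Ion Proton value was 1.25 times the Illumina value in the median, with 0.816 to 1.84 over the 94 like pairs. In the 8 unlike pairs the ratio ran from 0.534 to 7.69, and 6 of 8 lay above every like pair. The Gabrb1 level in those 8 Ion Proton libraries was 374 to 2082 with a median of 1428, against 204 to 625 with a median of 435 in the others. They were 5 CA1 and 3 CA3 libraries, and the coefficient of variation of Gabrb1 in the Ion Proton table was 80.0% in CA1 and 57.2% in CA3 against 15.8% in DG. Without them Gabrb1 in the Ion Proton table was -0.24 for CA1 minus CA3 (adjusted p = 0.0127) and -0.21 for CA1 minus DG (adjusted p = 0.0172), and both differences of Gabrb1 were then called. For Gabrd and Gabrb2 1 of the 8 unlike pairs lay above every like pair, for Gabrg1 2 and for Gabrg3 0.

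Of the gamma subunits, Gabrg3 had the lowest counts of the members, so counting error weighs most on it. Its normalised values in CA3 ran from 23.4 to 67.9 (median 37.9, mean 40.0 ± 10.2, SD, n = 34), in CA1 from 14.3 to 74.1 (median 29.7, mean 31.0 ± 11.2) and in DG from 10.7 to 47.8 (median 20.8, mean 22.0 ± 7.35). The lowest Gabrg3 values rested on 11 reads in CA1 and 7 reads in DG. DG lay lowest in the order of medians in all 3 tables, although its upper libraries overlapped the lower ones of CA1 and CA3. Gabrg3 in CA3 was 1.81-fold the DG level (95% interval 1.58 to 2.08), a log2 difference of 0.86 (limma adjusted p = 3.33e-12) against 0.75 by Ion Proton (adjusted p = 1.02e-05) and 0.80 by WT (adjusted p = 1.56e-09). In CA1 it was 1.39-fold the DG level, a log2 difference of 0.47 (SE 0.0998, adjusted p = 3.9e-05) against 0.53 by Ion Proton (adjusted p = 0.00198). Gabrg3 in CA3 exceeded that in DG in 32 of 34 rats by Illumina, 29 by Ion Proton and 32 by WT, and CA1 exceeded DG in 27, 25 and 26. The difference between CA1 and CA3, -0.39 by Illumina (adjusted p = 0.00111), was -0.22 by Ion Proton (adjusted p = 0.319) and was not called.

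Gabrg1, a gamma subunit found also in glial cells, differed least between subfields in the Illumina and WT tables, whereas in the Ion Proton table Gabrb1 differed less. Its normalised values ran from 456 to 795 in CA1 (median 639, mean 620 ± 83.5, SD, n = 34), from 470 to 937 in CA3 (median 628, mean 681 ± 121) and from 427 to 825 in DG (median 596, mean 593.9 ± 102.4). All pairs of neighbours overlapped over nearly the whole range. The largest Gabrg1 difference was 0.20 for CA3 minus DG (limma adjusted p = 0.00188), which was -0.00 by Ion Proton (adjusted p = 0.994) and 0.03 by WT (adjusted p = 0.639). The Ion Proton value of Gabrg1 was 0.621 times its Illumina value in the median, with ratios from 0.202 to 1.31 over the like pairs.

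Gabrd showed the largest differences. Its normalised values in DG ran from 124 to 797 (median 579, mean 549 ± 153, SD, n = 34), in CA1 from 200 to 651 (median 437, mean 424 ± 113) and in CA3 from 42.3 to 587 (median 157, mean 200 ± 123). The CA3 libraries were mostly low with a long upper tail that reached into the range of the other subfields, and their coefficient of variation was 61.8% against 26.6% in CA1 and 27.8% in DG. Gabrd in DG was 3.06-fold the CA3 level, a log2 difference of -1.61 for CA3 minus DG (95% interval -1.91 to -1.32, limma adjusted p = 2.64e-16), with -1.60 by Ion Proton (adjusted p = 5.46e-14) and -1.47 by WT (adjusted p = 1.27e-13). In CA1 Gabrd was 2.41-fold the CA3 level, a log2 difference of 1.27 (SE 0.151, 95% interval 0.97 to 1.56, adjusted p = 2.47e-11), with 1.26 by Ion Proton (adjusted p = 2.9e-09). The step from CA1 to DG was smaller, at -0.34 (adjusted p = 0.0452), and was not called because Ion Proton gave -0.35 with an adjusted p of 0.0994.

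Leaving out the 14 libraries that stand apart widened the Gabrd differences. CA1 minus CA3 became 1.53 and CA3 minus DG became -1.96. CA1 minus DG became -0.43 (limma adjusted p = 0.00523) with -0.42 by Ion Proton (adjusted p = 0.0284), so Gabrd was then called in all 3 comparisons. The 14 libraries were picked by subfield markers in the same data, so leaving them out favours wider subfield differences. Of all genes, 18.3% (CA1 minus CA3), 27.7% (CA1 minus DG) and 28.8% (CA3 minus DG) were then called, against 14.1%, 26.4% and 27.9% before. Within single rats Gabrd was higher in CA1 than in CA3 in 32 of 34 rats by Illumina, 29 by Ion Proton and 32 by WT, and in 23, 21 and 22 of the 23 rats without a library that stands apart. It was lower in CA3 than in DG in 31, 30 and 30 of 34 rats and in 22 of those 23 in each table. Rat R9781 had 124 normalised reads of Gabrd in DG and 311.5 in CA3, which is the reverse of the usual order, and both of these libraries stood nearest to each other's subfield.

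**Figure D2:**
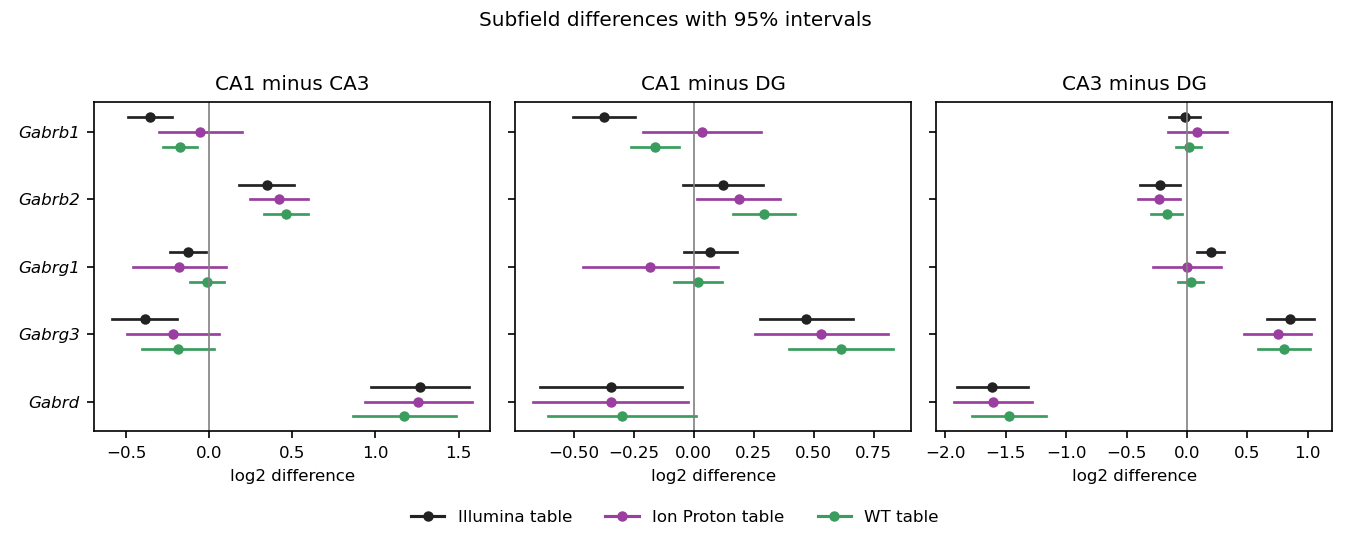
Log2 difference between subfields for each member with its 95% interval (x axis), in the Illumina, Ion Proton and WT tables (colours). Gabrd lies at 1.27 for CA1 minus CA3 and at -1.61 for CA3 minus DG in the Illumina table with the other tables close by, whereas Gabrb1 and Gabrg1 shift between tables.

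The CA3 level of Gabrd split by the number series of the rats. In rats below 9000 it ran from 42.3 to 211 with a median of 110 (114 ± 36.7, SD, n = 18), and in rats from 9000 up from 156.5 to 587 with a median of 274 (297 ± 114, n = 16). The series overlapped only between 156.5 and 211, and without the libraries that stand apart the second series still ran from 156.5 to 587 with a median of 226 (266 ± 128, n = 9). In DG the order was turned, with 357 to 797 (median 634) in rats below 9000 and 124 to 639 (median 511) in rats from 9000 up. In CA1 the medians of Gabrd were 437 and 427, and the second series was wider (200 to 651 against 300.2 to 513).

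The subfield differences were therefore fitted within each series and compared. In rats below 9000 Gabrd differed by 1.94 for CA1 minus CA3 (limma adjusted p = 2.35e-21), -0.54 for CA1 minus DG (adjusted p = 8.02e-05) and -2.48 for CA3 minus DG (adjusted p = 6.64e-26). In rats from 9000 up the same differences were 0.51 (adjusted p = 0.0752, Ion Proton 0.47, adjusted p = 0.179), -0.12 and -0.64 (adjusted p = 0.00908, Ion Proton -0.58, adjusted p = 0.0273). The difference between the series (from 9000 minus below 9000) was -1.42 for CA1 minus CA3 (adjusted p = 1.9e-07, Ion Proton -1.50) and 1.84 for CA3 minus DG (adjusted p = 6.52e-11, Ion Proton 1.94). Without the libraries that stand apart these Gabrd values were -1.32 (adjusted p = 1.38e-06) and 1.70 (adjusted p = 4.32e-09), and both remained called. Gabrd was among 2 of 5 members called for the first of these tests (13.7% of genes) and was the 1 of 5 called for CA3 minus DG (16.8%), and 0 of 5 were called for CA1 minus DG (0.106%), where limma gave 1 member, Gabrg3, an unadjusted p under 0.05 (-0.48, p = 0.0149).

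Gabrb2 was the second member whose subfield difference depended on the series. Its CA1 values ran from 266 to 684 (median 460) in rats below 9000 and from 189 to 518 (median 334) in rats from 9000 up. In CA3 they ran from 220 to 398 (median 303) and from 198 to 514 (median 347), so the series overlapped in both subfields in the Illumina table. By WT the CA1 values ran from 603 to 806 and from 445 to 872, and the CA3 values from 304 to 495 and from 432 to 926. Of the 16 rats from 9000 up, 1 by Illumina, 2 by Ion Proton and 7 by WT lay above the median of the other series in CA1, against 10, 10 and 16 in CA3. Gabrb2 differed between CA1 and CA3 by 0.62 in the first series (limma adjusted p = 2.36e-08) and by 0.03 in the second (adjusted p = 0.902), and the difference of -0.59 between the series was called (adjusted p = 0.00141, Ion Proton -0.51, adjusted p = 0.0209). Without the libraries that stand apart it was -0.39 (adjusted p = 0.0312, Ion Proton adjusted p = 0.211) and was not called.

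Gabrg3 kept its CA3 to DG difference in both series, at 0.93 below 9000 (limma adjusted p = 1.26e-08) and 0.78 from 9000 up (adjusted p = 3.53e-05, Ion Proton adjusted p = 0.0287). The CA1 to DG difference of Gabrg3 was 0.70 in the first series (adjusted p = 9.92e-06) and 0.21 in the second (adjusted p = 0.245). In rats from 9000 up 0 members were called between CA1 and CA3 (3.88% of genes), 0 between CA1 and DG (20.5%) and 2 between CA3 and DG (21.6%), with 4, 1 and 3 members at an unadjusted p under 0.05 by limma. In rats below 9000 the members called were 2 (21.4% of genes), 3 (15.4%) and 3 (22.9%).

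Summed levels of marker genes in the CA3 libraries of both series are given here beside these values, with no test of the lists, and the subfield lists are those by which libraries stood apart. In CA3 libraries the summed level of the DG markers (11 of 11 found, with Lct and Tdo2 at or under 3 reads in the median library) was 927 to 2058 in rats below 9000 and 1222 to 8161 in rats from 9000 up, and that of the CA1 markers (7 of 8 found) was 1405 to 8217 and 3156 to 13823. The CA3 markers (9 of 10 found, with Iyd at or under 3 reads) summed to 18042 to 24090 in CA3 libraries of the first series and to 4077 to 19543 in those of the second. Astrocyte markers (12 of 12 found, none at or under 3 reads) summed to 67192 to 86161 in CA3 of the first series and to 76855 to 111401 in CA3 of the second. Without the libraries that stand apart the ranges in the second series were 1466 to 2741 for the DG markers, 5815 to 10292.5 for the CA1 markers, 4077 to 19543 for the CA3 markers and 76855 to 108778 for the astrocyte markers. Gabrg1, which is expressed in some glia, had Illumina medians of 560, 600 and 543 in CA1, CA3 and DG of rats below 9000 and of 672, 778 and 643 in rats from 9000 up. The Illumina values of Gabrg1 in 15 of 16 libraries of the second series lay above the median of the first in each subfield. By Ion Proton this held for 11 of 16 in CA1, 14 of 16 in CA3 and 15 of 16 in DG. By WT it held for 5 of 16 in CA1, 8 of 16 in CA3 and 13 of 16 in DG. The part of these cell mixtures in the values of Gabrd, Gabrb2 and Gabrg1 was not tested.

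**Figure D3:**
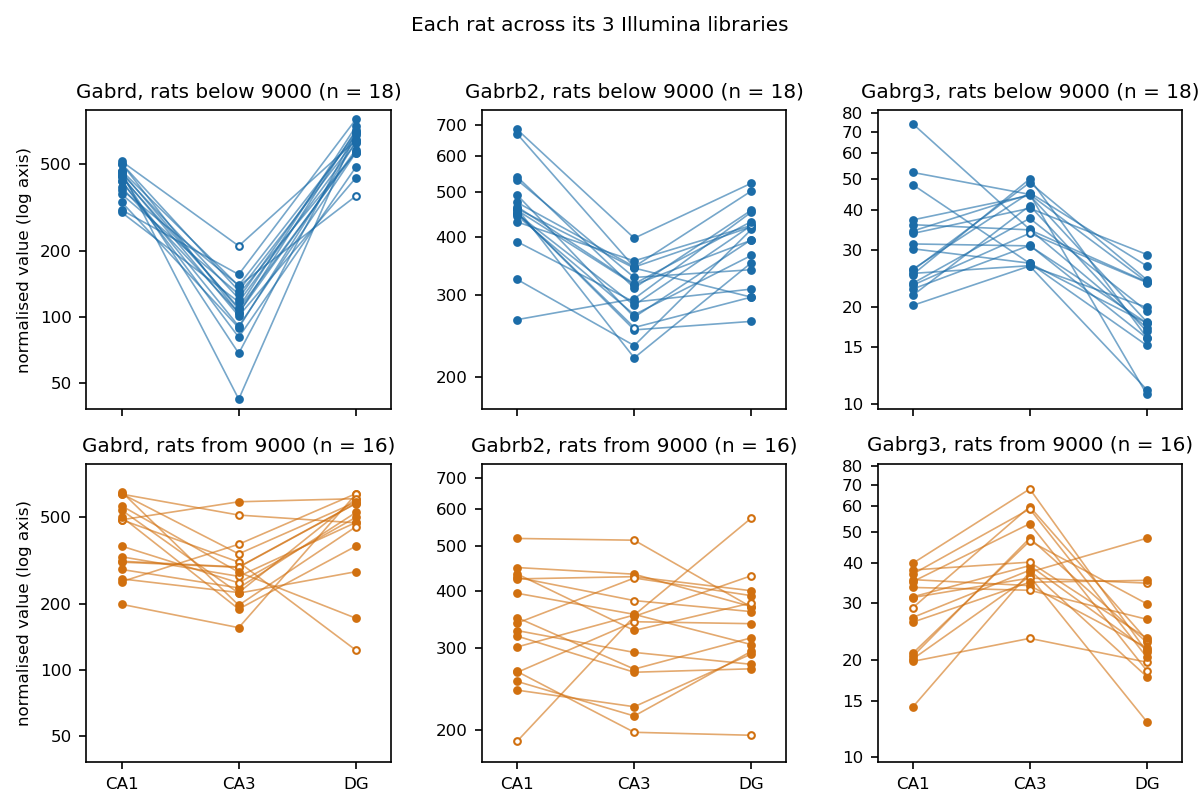
Normalised Illumina value (log axis) of Gabrd, Gabrb2 and Gabrg3 in CA1, CA3 and DG, with 1 line per rat, the 18 rats numbered below 9000 in the upper row and the 16 rats from 9000 up in the lower row, and open points for libraries that stand apart. The dip of Gabrd in CA3 is deep in the upper row and shallow or absent in many rats of the lower row, where its CA3 values start at 156.5.

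The rest of the GABA system was read from 5 lists of 55 other genes, of which 45 were tested. In CA1 against CA3, 5 of the 45 were called higher and 7 lower (14.1% of all genes were called in either direction), in CA1 against DG 6 and 13 (26.4%), and in CA3 against DG 7 and 13 (27.9%). The median log2 difference was -0.13, 0.07 and -0.02 over the 5 members, -0.00, -0.02 and -0.01 over the 45 other genes and 0.01, 0.00 and 0.01 over all genes tested. Among other GABA-A and GABA-C subunits, 10 of 14 were tested, and 2 rose and 2 fell in CA1 against CA3, 1 rose and 6 fell in CA1 against DG, and 0 rose and 5 fell in CA3 against DG. For GABA synthesis, uptake and breakdown (8 of 9 tested), 0 rose and 1 fell in CA1 against CA3, 2 rose and 0 fell in CA1 against DG, and 4 rose and 0 fell in CA3 against DG. Anchoring and trafficking genes (20 of 22 tested) had 2 higher and 3 lower, 1 and 4, and 1 and 4 in the same comparisons. GABA-B receptor genes (4 of 6 tested) had 0 higher and 1 lower, 1 and 2, and 1 and 2. Chloride transport genes (3 of 4 tested) had 1 higher and 0 lower, 1 and 1, and 1 and 2.

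The called genes with the largest changes included the usual partner of the delta subunit. Gabra4 was higher in CA1 than in CA3 by 0.52 on the log2 scale (limma adjusted p = 9.04e-10) and lower in CA3 than in DG, at -0.86 (adjusted p = 3.23e-19). With -0.34 for CA1 minus DG (limma adjusted p = 2.1e-05) its order was that of the Gabrd medians. The step of Gabrd itself from CA1 to DG was not called. Unlike Gabrd, Gabra4 was not called in the test between the number series. Gabrr2, a GABA-C (rho) subunit, was higher in CA1 than in CA3 by 1.08 (adjusted p = 6.09e-07) and than in DG by 1.79 (adjusted p = 7.7e-15). Gabrr3, another rho subunit, was lower in CA1 than in DG (-0.55, adjusted p = 0.00279) and in CA3 than in DG (-1.02, adjusted p = 7.76e-08). Gabra5, an alpha subunit known for tonic inhibition and the neighbour of Gabrg3, was lower in CA1 than in CA3, at -0.46 (adjusted p = 7.46e-06). Gabra2, an alpha subunit between Gabra4 and Gabrg1 on chromosome 14, was lower in CA1 than in DG, at -0.63 (adjusted p = 9.53e-13). Kctd8 and Kctd16, auxiliary subunits of GABA-B receptors, differed in opposite directions between CA3 and DG, at 0.91 (adjusted p = 6.19e-07) and -0.63 (adjusted p = 3.23e-09). Kctd8 was also higher in CA1 than in DG, at 1.37 (adjusted p = 3.38e-12). Shisa7, an accessory protein of GABA-A receptors, was higher in CA1 than in CA3 by 0.36 (adjusted p = 4.73e-08).

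The test between the number series also gave calls among the other GABA genes. For CA1 minus CA3 (from 9000 minus below 9000) 7 of the 45 were called higher and 3 lower (13.7% of all genes), for CA3 minus DG 3 and 9 (16.8%), and for CA1 minus DG 0 and 0 (0.106%), where limma gave 12 an unadjusted p under 0.05. Without the libraries that stand apart these were 6 and 2 (10.9% of all genes), 4 and 7 (15%), and 0 and 0 (0.113%, with 12 under 0.05). Gabra3, an alpha subunit, had the largest values, at -1.43 for CA1 minus CA3 (limma adjusted p = 1.15e-08) and 1.37 for CA3 minus DG (adjusted p = 2.72e-08), the same signs as Gabrd. Hap1, a trafficking partner of GABA-A receptors, had -0.95 (adjusted p = 2.4e-06) and 0.78 (adjusted p = 6.13e-05). Slc12a2, the chloride importer NKCC1, had the opposite signs, at 0.83 (adjusted p = 1.42e-07) and -0.91 (adjusted p = 6.82e-09). Trak2 had 0.84 for CA1 minus CA3 (adjusted p = 5.3e-10) and Gabra5 had -0.87 for CA3 minus DG (adjusted p = 2.19e-08). Each of these values was still called without the libraries that stand apart.

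Genes whose values ran most alike to each member over all Illumina libraries were looked up among 14155 genes, as a description, since these libraries share rats, subfields and size factors. For Gabrd they were Stk32c (r = 0.96), Kcnj4 (0.93) and Kcnk1 (0.93), and Stk32c kept r = 0.93 in the Ion Proton table and r = 0.92 once subfield means were removed. For Gabrb2 they included Rgs17 (0.82, and 0.49 in the Ion Proton table) and Acvr1b (0.78, and 0.35). Gabrg3 ran with Dnm3 (0.78), Ptprt (0.75) and Erbb4 (0.74), a receptor that is also in the interneuron list. Gabrg1 ran with Cpt1a (0.86), Nwd1 (0.85) and Ptprz1 (0.85), and of these only Ptprz1 kept its r in the Ion Proton table (0.86, against -0.04 and -0.14). Gabrb1 ran with Srgap3, Bicd1 and Uggt1 in the Illumina table (0.83, 0.83 and 0.82), and none of these held in the Ion Proton table (-0.20, 0.26 and 0.04). Among pairs of members, Gabrg3 and Gabrd were the most opposed (r = -0.49 by Illumina and -0.45 by Ion Proton), against -0.07 by Illumina and -0.26 by Ion Proton once subfield means were removed.

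Age was compared in each subfield between 24 aged and 10 young rats, and a member was called when p was under 0.01 in the Illumina table and the Ion Proton table agreed in direction with a one-sided p under 0.05. Called with age were 0 of 5 members in CA1 (0.832% of genes), 0 of 5 in CA3 (0.393%) and 0 of 5 in DG (1.07%). By Illumina, limma, edgeR and DESeq2 each gave 0 of the 15 values an unadjusted p under 0.05. Illumina log2 differences (aged minus young) lay between -0.09 and 0.27, and the bounds of their 95% intervals between -0.38 and 0.86. By Ion Proton they lay between -0.27 and 0.31, with bounds between -0.75 and 0.83. The smallest limma p was 0.168 by Ion Proton (Gabrg1 in DG) and 0.23 by WT (Gabrg3 in CA3). By Illumina it was 0.39, for Gabrd in CA3 (limma, 0.27, interval -0.33 to 0.86). Leaving out 1 library at a time gave 0.07 (without young rat R2221) to 0.38 for Gabrd in CA3 by Illumina. The CA3 values of Gabrd ran from 42.3 to 296 in the young rats (median 169) and from 68.4 to 587 in the aged rats (median 156.5), so the young range lay mostly within the aged one, and 5 of 24 aged libraries lay above every young library. The 95% interval of Gabrd in CA3 by Illumina still includes changes of up to 0.86.

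Each aged class was also set against the same 10 young libraries, so these comparisons share their controls with each other and with the age comparison. For OG minus Y, 0 of 5 members were called in CA1 (0.655% of genes), CA3 (0.281%) and DG (0.649%). Log2 differences ran from -0.24 to 0.45 by Illumina and from -0.31 to 0.34 by Ion Proton. The smallest Ion Proton p of limma was 0.147 (Gabrd in DG). By Illumina the smallest was 0.163, for Gabrb2 in CA1 (-0.24). Young rats had 254.5 to 684 there (median 431) and OG rats 189 to 476 (median 378). For OB minus Y, 0 of 5 were called in CA1 (0.81%), CA3 (0.344%) and DG (0.97%). Log2 differences ran from -0.13 to 0.21 by Illumina and from -0.39 to 0.31 by Ion Proton. The smallest limma p was 0.0694 by Illumina, for Gabrb1 in CA3 (0.21), and 0.117 by Ion Proton, for Gabrb2 in CA3. By Illumina, limma, edgeR and DESeq2 gave 0 of 15 values an unadjusted p under 0.05 in either comparison. With the number series as covariate limma gave 1 member such a p for OG minus Y in CA3, as it did in rats below 9000 alone. In both settings 0 members were called there (0.442% and 0.134% of genes).

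Memory class was compared among aged rats only, 12 OB against 12 OG in each subfield, with the same call as for age. In CA3 1 of 5 members was called (0.0211% of genes, 3 of 14232), which was Gabrb1, and in CA1 (0.62%) and in DG (0.121%) 0 of 5 were called. Gabrb1 in CA3 ran from 243 to 435 in OG (median 357, mean 351 ± 46.8, SD, n = 12) and from 335 to 705 in OB (median 414, mean 432 ± 95.9, n = 12). The OB libraries lay higher, but most of both groups overlapped between 335 and 435. The Gabrb1 difference was 0.28 (SE 0.097, 95% interval 0.09 to 0.48, limma p = 0.00692, adjusted p = 1) and 0.43 by Ion Proton (one-sided p = 0.0185), so it did not hold after adjustment over all genes. edgeR and DESeq2 also called Gabrb1 in CA3 and 0 members in CA1 and DG. By Illumina each of the 3 tools gave 1 member (Gabrd) an unadjusted p under 0.05 in CA1 and 0 in DG. By WT 1 of 15 values had a limma p under 0.05, Gabrb2 in DG (p = 0.0178), with 1 of 12 OB libraries above the OG median. Gabrb2 in DG differed by -0.13 by Illumina (limma p = 0.329) and by -0.21 by Ion Proton (limma p = 0.127).

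The call of Gabrb1 in CA3 was lost when any 1 of 5 libraries was left out, while its difference kept its sign. Its highest OB value, 705 in rat R9875, came from a library of 166 reads of Gabrb1 that stood apart and whose Ion Proton library, at 376, was among the 8 unlike ones, and without it the difference was 0.22 (limma p = 0.00883) and was still called. Leaving out 1 of the 24 libraries at a time gave differences from 0.22 to 0.32 with p from 0.00324 to 0.0143, and Gabrb1 was still called in 19 of the 24 fits but not without R2235 (0.27, p = 0.0124), R9781 (0.27, p = 0.0124), R9860 (0.27, p = 0.0127), R9862 (0.28, p = 0.0115) or R9869 (0.24, p = 0.0143). Without the libraries that stand apart it was 0.21 (p = 0.0241) and was not called. Gabrb1 was also not called without the 7 rats sequenced deepest by Illumina, where 0% of genes were called. The Ion Proton CA3 library of OB rat R1931 was also among the 8 unlike ones, and without the unlike libraries Ion Proton gave 0.30 for Gabrb1 (one-sided p = 0.0108), so the call stayed. In rats below 9000 Gabrb1 ran from 356 to 435 in OG and from 341 to 473 in OB (0.10, p = 0.193), and in rats from 9000 up from 243 to 360 and from 335 to 705 (0.49, p = 0.0139), with 0 of the 2 series calling it (0.105% of genes called in the second). The test of that difference between the series gave 0.39 for Gabrb1 (limma p = 0.0432, adjusted p = 0.942, Ion Proton 0.06, p = 0.885), which did not pass after adjustment. The WT table gave 0.06 (p = 0.527).

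Gabrd in CA1 was called higher in OB than in OG within rats from 9000 up, and was not called over all aged rats. Over all aged rats Gabrd in CA1 ran from 200 to 513 in OG (median 320) and from 335 to 638 in OB (median 448), a log2 difference of 0.39 (SE 0.145, interval 0.10 to 0.67, limma p = 0.0126, adjusted p = 0.702, Ion Proton 0.25, p = 0.204). In rats from 9000 up the 6 OG rats had 200 to 486 (median 299.9) and the 5 OB rats 486 to 638 (median 538), so that the classes met at the highest OG and the lowest OB value, both 486 after rounding. That difference of Gabrd was 0.89 (limma p = 0.000359, adjusted p = 0.612, Ion Proton 0.77, one-sided p = 0.00382) and was called, as were 0.695% of genes in that series and 0.227% in the other. In rats below 9000 the OG values of 300.2 to 513 and the OB values of 335 to 453 overlapped (-0.04, p = 0.778). The test of the difference between the series gave 0.93 for Gabrd in CA1 (limma p = 0.000596, adjusted p = 0.958, Ion Proton 0.98, p = 0.00921), which did not pass after adjustment. The CA1 library of OG rat R9869, at 485.7, stood apart, and without such libraries that test gave 1.06 (p = 2.86e-05, adjusted p = 0.406).

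**Figure D4:**
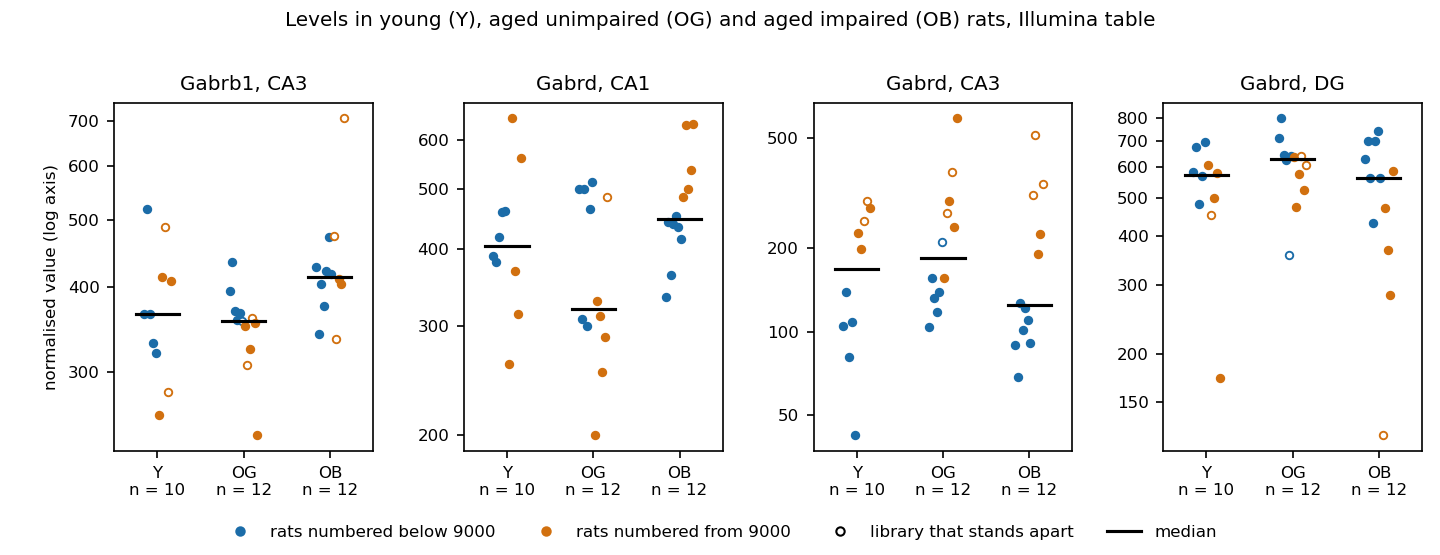
Normalised Illumina value (log axis) of Gabrb1 in CA3 and of Gabrd in CA1, CA3 and DG in the 10 Y, 12 OG and 12 OB rats, with 1 point per library, colours for the number series of the rats, open points for libraries that stand apart and bars at the class medians. The classes overlap in every panel, and in the CA3 panel of Gabrd the series separate more than the classes do.

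In CA3 and DG Gabrd ran the other way between the memory classes, without passing the test over all aged rats. In CA3 it ran from 104 to 587 in OG (median 184) and from 68.4 to 510 in OB (median 124), a log2 difference of -0.37 (limma p = 0.255). Within rats below 9000 the OG values of 104 to 211 and the OB values of 68.4 to 127 differed by -0.48 (p = 0.0093, Ion Proton -0.77, one-sided p = 0.0217), which was called for Gabrd and for 0.0142% of genes, and in rats from 9000 up by 0.01 (p = 0.966). The test of the difference between the series gave 0.50 for Gabrd in CA3 (limma p = 0.177, adjusted p = 0.942, Ion Proton 1.08, p = 0.0506) and -0.82 in DG (p = 0.0282, adjusted p = 1, Ion Proton -0.69, p = 0.0745), and neither passed after adjustment. In DG the Gabrd values ran from 357 to 797 in OG (median 629) and from 124 to 741 in OB (median 562), a difference of -0.34 (p = 0.122). Leaving out 1 library at a time gave differences of Gabrd from -0.52 (without R9870) to -0.23 (without R9869) in CA3 and from -0.40 to -0.16 (without R9781) in DG. Gabrb2 in CA1 had 0.30 (p = 0.0697), with 189 to 476 in OG and 266 to 669 in OB.

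Whether these differences themselves differed between subfields was tested in the fit of all libraries of a table. Of the 30 tests of the members, 15 for age and 15 for memory class, 0 passed an adjusted p of 0.05 by limma, and the same held for 0 of all genes. At an unadjusted p under 0.05 limma gave 0 for age and 4 for memory class, and edgeR and DESeq2 gave 2 each in all with 0 past the adjusted threshold. These were Gabrb1 for CA1 minus CA3 (-0.38, limma p = 0.017), Gabrd for CA1 minus CA3 (0.75, p = 0.0365) and for CA1 minus DG (0.72, p = 0.0442), and Gabrb2 for CA1 minus DG (0.43, p = 0.0358). Over all genes, an unadjusted p under 0.05 occurred for age in 1.89% (CA1 minus CA3), 0.353% (CA1 minus DG) and 1.03% (CA3 minus DG) and for memory class in 5.22%, 3.74% and 2.36% in the same order.

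Among the other GABA genes, memory class gave 1 call in each direction in CA1 (44 tested, 0.62% of all genes called) and 0 in CA3 (45 tested, 0.0211%) and in DG (44 tested, 0.121%). Age gave 0 calls among the same numbers in CA1 (0.832%), CA3 (0.393%) and DG (1.07%), where limma gave 2, 1 and 1 of these genes an unadjusted p under 0.05. Gabra3, an alpha subunit, was higher in OB than in OG in CA1 by 0.64 (limma p = 0.000315, adjusted p = 0.407), and Gabra5 was lower, at -0.32 (p = 0.00306, adjusted p = 0.562).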

How the data were processed

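RNA of CA1, CA3 and DG pieces of 34 rats was measured in 3 tables, each with 1 library per rat and subfield. The authors scaled the reads counted per gene by each library's size factor, and the deposited unit is a normalised signal. Per the methods, Illumina poly-A reads were demultiplexed with bcl2fastq 2.17, trimmed with cutadapt 1.8.3, aligned to rn5 with STAR 2.5, and counted with featureCounts 1.4.4, and Ion Proton poly-A reads were aligned with TopHat2 and Bowtie2. The submitters' processing notes name DESeq2 1.16.1, and the methods give another version for the study's tests. Labels and methods name different TruSeq kits, so whether strand was counted is unknown and overlapping genes can share reads. How the WT table was made is not given in the sources used here. Every column was matched to a sample.

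Values were tested on log2(value + 1) over genes with a mean of at least 10, with limma 3.58.1 (R 4.3.3) in each table separately, in place of the study's DESeq2 because the deposited values are normalised. The fold of a low gene is understated on this scale. Intervals cover 95%. Whole reads could be recovered for 100.0% of values above 0 (relative tolerance 1e-06), and edgeR 4.0.16 and DESeq2 1.42.0 ran on them. Genes called between CA1 and CA3 were 1996 by limma, 2156 by edgeR and 2303 by DESeq2. Calls of age and memory class used the study's thresholds and no adjustment. Alternatives were another pseudocount, no filter, quantile normalisation, leaving out libraries, the number series, the WT table and the rat as a block. Same-numbered libraries come from the same animal, and the correlations of their deviations from the group means had medians of 0.087 (CA1 and CA3), 0.189 (CA1 and DG) and -0.032 (CA3 and DG). The pipeline was tested on simulated data. All 5 members were named, with the 4 largest called changes among other GABA genes per comparison and the 3 genes most alike to each member, of which 1 is not reported here. The members and lists were chosen with earlier results of these data known. Libraries of a group come from separate rats.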

Additional observations from a re-analysis of the deposited data

Results flagged for a closer look

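Only groups of the 10 young rats were tested for single libraries far from the rest, because the aged groups of 12 were larger than the test covered. Such libraries were found in 6 of 45 groups, where chance gives about 1 in 20 for separate groups. The groups were not separate, since the 3 tables hold the same rats, and all flags came from rats R1923 and R9881. Rat R1923 gave 3 of them. Its Gabrb1 in CA1 was 468.1 by Illumina (next 340.1), its Gabrb2 in DG was 523.6 by Illumina (next 395.4) and its Gabrb2 in CA1 was 651.7 by Ion Proton (next 437.2). The DG library of rat R9881 gave the other 3, with Gabrd at 172.9 by Illumina, far below the next value of 451.4, and Gabrg3 at 47.81 by Illumina (next 29.11) and 65.49 by WT (next 32.18). That library was not among those that stand apart by the subfield markers.

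The difference between subfields depended on the number series of the rats, by a test of the difference itself in both poly-A tables, for Gabrd between CA1 and CA3 (-1.42) and between CA3 and DG (1.84) and for Gabrb2 between CA1 and CA3 (-0.59). The tests that gave these are limma interaction terms with adjusted p of 1.9e-07, 6.52e-11 and 0.00141 for Gabrd, Gabrd and Gabrb2. Without the libraries that stand apart Gabrb2 had -0.39 (Ion Proton adjusted p = 0.211) and was no longer called, and both Gabrd values were.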

How the results depend on the processing

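Of 1200 values of the members under other settings, 1090 kept their direction and side of the threshold, 11 were no longer called, 9 became called, 0 called values reversed and 90 values that were never called changed sign, and of 240 counts of called members 229 stayed within 1.5 times. Settings added after seeing the data were the block together with leaving out libraries, the subfield fits within each number series with the test between them, the test of memory class between the series, and leaving out the unlike Ion Proton libraries. Between CA1 and CA3 the count of called members became 0 in rats from 9000 up, where 3.88% of all genes were called. Between CA1 and DG it became 2 without the libraries that stand apart (27.7% of all genes called), 3 in the replicate block without them (29.3%), 3 in rats below 9000 (15.4%), 0 in rats from 9000 up (20.5%) and 2 without the unlike Ion Proton libraries (32.2%). For memory class in CA1 it became 1 in rats from 9000 up (0.695%) and ran from 0 to 1 when 1 library was left out, being 1 (Gabrd) without OB rat R1931 or OG rat R2232. In CA3 it became 0 without the libraries that stand apart (0.00704%), 0 in rats from 9000 up (0.105%), 0 without the 7 deepest rats (0%) and 0 with the WT table (0%), and ran from 0 to 1 when 1 library was left out. In rats below 9000 it stayed at 1 (0.0142%), which was Gabrd and not Gabrb1. Gabrb2 between CA3 and DG was lost under DESeq2, without the filter and in rats from 9000 up. The cause of these changes was not tested.

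With the rat as a replicate block (pairing the 3 libraries of a rat), 0 of 45 values of the members had another call, and the counts of called members stayed at 2, 1 and 3 for the subfield comparisons. Depth limits Gabrg3 most. Intervals here are for differences between group means and do not give the range over single rats. Genes called with age in CA3 were 56 by limma, 157 by edgeR and 100 by DESeq2.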
